A study of Populus tremula x Populus alba with 24 samples.

Results

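The earliest time after a lipochitooligosaccharide (LCO) signal, 15 min, was set against the control in poplar roots, with the 3 libraries of 15 min taken both together and one by one. These libraries and the 3 control libraries were found by the names of their columns, and they are 6 of the 22 libraries with a column among 24 labelled samples. The 15 min roots, of the hybrid Populus tremula x Populus alba clone 717-1B4, received LCO of the bacterium Rhizobium sp. IRBG74 at 10 nM in an immersion of 1 h that began 3 h after dawn, and are labelled as collected at 15 min. The control roots, of the same clone, were taken at once, at time 0, and the labels name an immersion in 0.005% ethanol as the control solution. They do not say plainly that every control was immersed, nor whether times after the treatment count from its beginning or from when the solution was poured off. Both groups came from plantlets rooted in vitro and then kept for 10 days on vertical plates low in nitrogen, at 0.5 mM, and in phosphate, at 7 uM, and for each library the roots of 4 plants were pooled. As the control was taken at time 0 only, LCO, the time since handling and the time of day cannot be told apart in this comparison. All plants are of 1 clone, so the replicates are pools of genetically identical plants, and p-values describe the spread between such pools. In whole roots, fewer cells of a type and less RNA per cell cannot be told apart.

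LCO are short chitin chains with a fatty acid, released by rhizobia and by mycorrhizal fungi towards a host root. In legumes, receptor kinases with LysM domains at the root surface bind them, calcium in and around the nucleus then oscillates, and a calcium-dependent kinase passes the signal to transcription factors that prepare the root for infection. Poplar forms no nodules but takes up mycorrhizal fungi as partners, and part of the same signalling chain is known in plants of that kind. Which of the genes described here belong to that chain, or to stress responses, is not stated: the tables give Potri identifiers, the names of gene models of Populus trichocarpa, without names or functions, and no annotation was used here. For the same reason the root label was not checked against marker genes. Genes therefore go by identifier, with 2 higher and 2 lower at most for each question.

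Values are TPM, a transcript abundance corrected for transcript length and library total, and fold changes are 15 min minus control on the log2(TPM + 1) scale, which understates the change of genes with low values. Of 42950 genes, 25636 averaged 1 TPM or more across the 22 libraries and were tested. The read depth behind each value is unknown. Replicate 2 of 15 min stood apart from the other libraries of its group. It listed 12139 genes at 0, against 9241 in replicate 1 and 9265 in replicate 3, while the controls ranged from 10314 to 10663. The 30 min libraries listed 10503 and 13313, those of 1 h 11176 to 12911 and those of 2 h 11854 and 12054. At 4 h the range was 10016 to 10762, and at 8 h and 24 h it was 9029 to 10070. Replicate 2 was thus within the range of 30 min to 2 h. Replicates 1 and 3 were within that of 8 h and 24 h. Replicate 2 lay at least 2-fold above both other 15 min libraries in 1300 tested genes and at least 2-fold below both in 1405. For replicate 1 these numbers were 272 and 422, for replicate 3 they were 103 and 250, and for single controls set against the other controls they ranged from 94 to 268. The part of depth or of these genes at 0 in the results was not tested.

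The change is shown by 4 genes on which all 3 libraries of 15 min agreed, picked for large fold changes. In passing the test with no overlap between the groups, 1977 genes (7.71% of those tested) were like them, 1073 higher (4.19%) and 904 lower (3.53%). Their size of change is not typical: the median log2 fold change was 1.00 over the 1109 genes called higher and -0.93 over the 957 called lower. Potri.008G062300 was at 5.01, 16.5 and 4.10 TPM in 15 min replicates 1, 2 and 3, against 1080, 929 and 1093 TPM in control replicates 1, 2 and 3. Every 15 min library was far below every control, and replicate 2 was the highest of the 15 min libraries. Its level averaged 8.54 ± 6.92 TPM at 15 min and 1034 ± 90.8 TPM in the control (SD, n = 3 each), a log2 fold change of -6.99 (SE 0.36, limma with Benjamini-Hochberg adjustment over 25636 genes, adjusted p = 2.51e-09). Potri.010G195700 was at 3.72, 8.36 and 2.35 TPM at 15 min, against 505, 329 and 580 TPM in the control. Replicate 2 was again the least reduced of the 15 min libraries, and the groups did not overlap. The log2 fold change was -6.44 (SE 0.31, limma, adjusted p = 1.56e-09).

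The 2 genes with the largest rise were taken from those averaging 5 TPM or more over both groups, without overlap, that passed with all libraries and with the 6 alone. Potri.006G105500 was at 43.7, 60.02 and 47.4 TPM in the 15 min libraries, against 2.48, 5.18 and 7.17 TPM in the controls. Here replicate 2 was the highest at 15 min, and the lowest 15 min library exceeded the highest control. The means were 50.4 ± 8.55 TPM at 15 min and 4.94 ± 2.36 TPM in the control (SD, n = 3 each), a log2 fold change of 3.19 (SE 0.34, limma, adjusted p = 1.61e-05). Potri.012G134100 was at 15.4, 21.1 and 17.4 TPM at 15 min, against 1.74, 1.27 and 1.66 TPM in the control. Its libraries were close together within each group, with 17.9 ± 2.88 TPM at 15 min and 1.56 ± 0.252 TPM in the control. The log2 fold change was 2.88 (SE 0.19, limma, adjusted p = 4.22e-08). These 4 genes also passed in a fit on the 6 libraries of both groups alone, with limma adjusted p-values of 0.00406 for Potri.008G062300, 0.00406 for Potri.010G195700, 0.0149 for Potri.006G105500 and 0.00416 for Potri.012G134100.

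**Figure D1:**
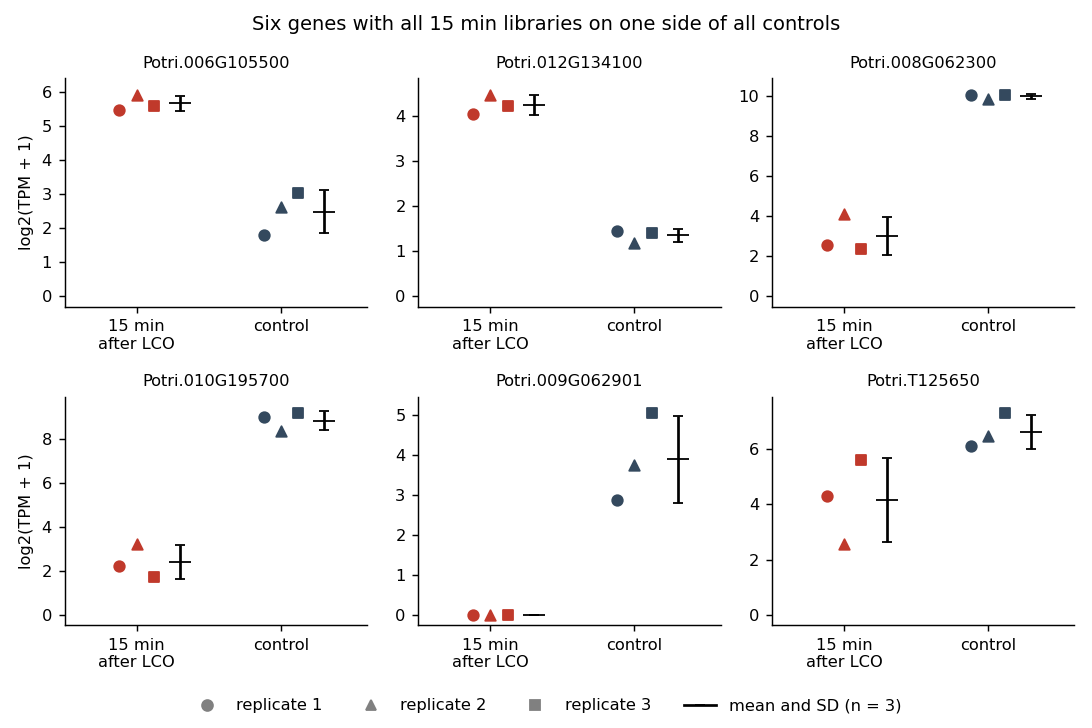
Levels on the log2(TPM + 1) scale in each library of 15 min after LCO (red) and of the control (blue), with the mean and SD of n = 3 beside the points. In Potri.008G062300 and Potri.010G195700 the 15 min libraries lie far below the controls, in Potri.006G105500 and Potri.012G134100 above them, and in Potri.009G062901 all 3 libraries of 15 min are listed at 0.

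Across all tested genes, 2066 (8.06%) were called at an adjusted p under 0.05 in the limma fit to all 22 libraries, which share 1 estimate of the spread; 1109 (4.33%) were higher and 957 (3.73%) lower than control. The median log2 fold change over all 25636 genes was -0.01. The spread at 15 min was known from earlier results to exceed the shared one, so p-values from this fit can be too small. The fit on the 6 libraries alone called 240 genes (0.936%), of which 144 were higher (0.562%) and 96 lower (0.374%), and 231 of them were called in the same direction in the larger fit. The 15 min libraries varied more than the controls: the median SD per gene was 0.319 on the log2 scale at 15 min and 0.205 in the control. It was 0.171 between 15 min replicates 1 and 3. That value comes from 2 libraries and the others from 3, so it is not to be compared with them directly. Without 15 min replicate 2 the fit to all other libraries called 5831 genes (22.7%), 3072 higher (12%) and 2759 lower (10.8%). The count was 848 without replicate 1 and 1068 without replicate 3 of 15 min, and 856 and 1302 without control replicates 1 and 2. Of the 2066 genes, 1975 were also called, in the same direction, without replicate 2, and none was called in the opposite direction.

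The agreement of single libraries was counted without a test, each library being set against the same 3 controls. All 3 libraries of 15 min lay above all controls in 2891 genes (11.3% of those tested) and below all controls in 3106 (12.1%), together 5997 (23.4%). With a margin of at least 2-fold beyond every control, replicate 1 was higher in 1299 genes, replicate 2 in 520 and replicate 3 in 699; the numbers of genes lower by that margin were 1135, 506 and 615. All 3 libraries passed the margin together in 122 genes that were higher and 93 that were lower. Replicates 1 and 3 passed it without replicate 2 in 415 genes that were higher and 285 that were lower. Replicates 1 and 2 passed it without replicate 3 in 48 and 35 genes, and replicates 2 and 3 without replicate 1 in 28 and 28. Replicate 1 alone passed in 714 and 722 genes, replicate 2 alone in 322 and 350, and replicate 3 alone in 134 and 209.

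**Figure D2:**
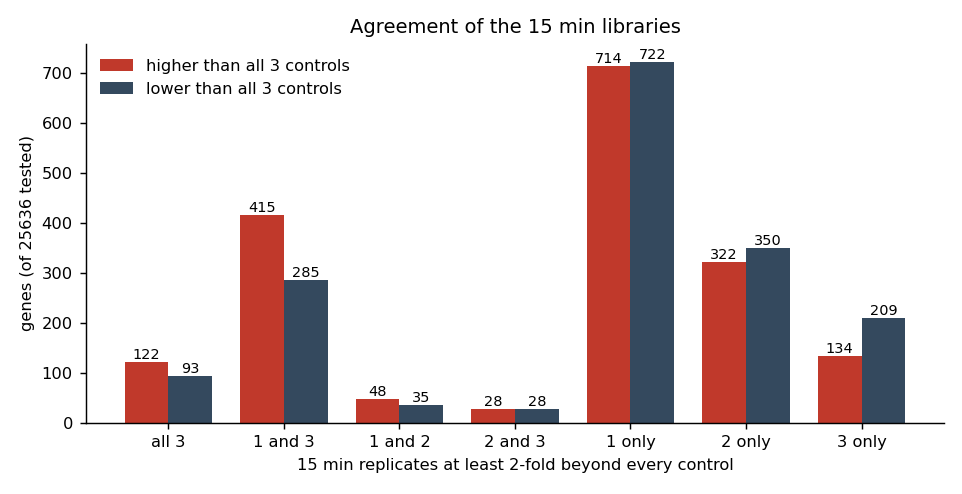
Number of tested genes in which exactly the named 15 min replicates were at least 2-fold above (red) or below (blue) every control library, on the log2(TPM + 1) scale. Replicates 1 and 3 without replicate 2 account for 415 and 285 genes, and all 3 replicates together for 122 and 93.

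A narrower group of 227 genes (0.885% of those tested) was called in each of 3 fits, that to all libraries, that to the 6 libraries and that without 15 min replicate 2, and had the 3 libraries of 15 min on 1 side of the controls. It holds 139 genes that rose (0.542%) and 88 that fell (0.343%), the 4 named ones among them. The members were chosen by these values, so the following is a description. Among the 139 genes the median log2 fold change was 1.67, and 33 were at least 4-fold higher. Among the 88 genes it was -1.98, and 44 were at least 4-fold, 18 at least 8-fold and 8 at least 16-fold lower. No member of the 139 was 16-fold higher on the log2(TPM + 1) scale. With a pseudocount of 0.1 TPM the order of the 2 named genes turned, with 3.44 for Potri.012G134100 and 3.435 for Potri.006G105500. The genes that fell were more abundant in the control than those that rose. The choice against these same controls favours this, as a gene near 0 there cannot fall far. The median level of the 88 genes was 5.38 TPM at 15 min and 28.1 TPM in the control, and 25 of them averaged over 100 TPM in the control. Over all tested genes the medians were 8.55 TPM at 15 min and 8.41 TPM in the control. The genes that rose had a median of 29.6 TPM at 15 min and 8.31 TPM in the control, and 22 of the 139 averaged over 100 TPM at 15 min.

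In these 227 genes replicate 2 moved about as far as the other libraries, which the way they were chosen favours. All 3 libraries of 15 min had to lie on 1 side of the controls. In the genes that rose, the median difference from the control mean was 1.77 in 15 min replicate 1, 1.61 in replicate 2 and 1.64 in replicate 3 on the log2 scale. In the genes that fell it was -1.87 in replicate 1, -1.83 in replicate 2 and -2.21 in replicate 3. All 3 libraries were at least 2-fold beyond every control in 96 of the 139 and in 74 of the 88. Over all 1109 genes called higher, by contrast, the medians were 1.17, 0.76 and 0.99 in replicates 1, 2 and 3, and over all 957 called lower -1.10, -0.67 and -0.97. Together the 88 genes took up 0.217%, 0.228% and 0.164% of the summed TPM in 15 min replicates 1, 2 and 3, against 1.71%, 1.32% and 1.71% in control replicates 1, 2 and 3. The 139 genes took up 1.11%, 0.971% and 0.974% at 15 min, against 0.302%, 0.345% and 0.318% in the control. Leaving out 15 min replicate 1 or 3 or any 1 control kept 206 to 219 of the 227 calls in the same direction, and 205 were kept in all these fits; the fit without 15 min replicate 2 was used to choose the genes.

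**Figure D3:**
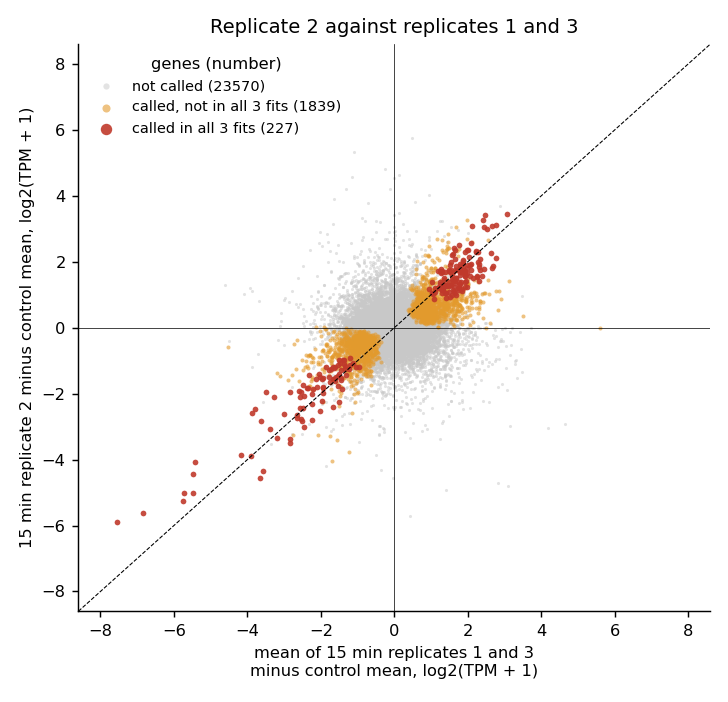
Difference from the control mean, on the log2(TPM + 1) scale, in 15 min replicate 2 (vertical axis) and in the mean of replicates 1 and 3 (horizontal axis) for 25636 genes, with equality as the dashed line. The 227 genes called in all 3 fits (red) lie along that line in both directions, while genes not called (grey) spread on both sides of 0 along either axis. The 227 were chosen in part for agreement of the 3 libraries.

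In wider sets of genes, which include the 227, replicate 2 often lay elsewhere. The mean of 15 min replicates 1 and 3 was at least 2-fold from the control mean in 2963 tested genes. Replicate 2 was on the same side of the control mean in 1835 of these and at least 2-fold from it on that side in 592. In 214 of them it was at least 2-fold from the control mean on the opposite side. Among the 3072 genes called higher without replicate 2, that library was above all controls in 1493 (48.6%), between them in 867 and below all of them in 712 (23.2%). Among the 2759 called lower, it was below all controls in 1327 (48.1%), between them in 948 and above all of them in 484 (17.5%). Over all 25636 tested genes, replicate 2 was above all controls in 7545 (29.4%) and below all of them in 8856 (34.5%), and the shares among called genes are to be read beside these. Replicate 2 was not used to call the genes, but the controls were, so the shares carry no test. Its median difference from the control mean was 0.15 over the higher genes and -0.17 over the lower ones, against 0.99 and -0.997 in replicate 1 and 0.79 and -0.79 in replicate 3.

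How far the libraries parted is shown by 4 genes that were chosen for that difference, with no test made. Potri.018G101400 was at 242, 0 and 224 TPM in 15 min replicates 1, 2 and 3, against 41.6, 15.3 and 29.4 TPM in the controls. Replicates 1 and 3 were thus above every control and replicate 2 was listed at 0. The same gene was between 0 and 84.6 TPM in all libraries from 30 min to 4 h, between 296 and 448 TPM at 8 h and between 155 and 387 TPM at 24 h. Potri.002G103400 had the same order, with 194, 0 and 169 TPM at 15 min, against 46.2, 23.8 and 14.1 TPM in the controls. It was between 189 and 229 TPM at 8 h and between 208 and 354 TPM at 24 h. In these 2 genes replicates 1 and 3 of 15 min were near the late levels and replicate 2 was not.

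In the other direction, Potri.013G129200 was at 0, 83.7 and 0 TPM in 15 min replicates 1, 2 and 3, against 0, 0 and 8.57 TPM in the controls. Among the later libraries it was above 0 in 1 of 2 at 30 min, 2 of 3 at 1 h and 1 of 2 at 2 h, and at 0 in all libraries of 4 h, 8 h and 24 h. Potri.011G048800 was at 0, 45.8 and 0 TPM at 15 min, against 28.8, 0.0346 and 0 TPM in the controls. It was above 0 in 2 of the 3 controls as well, with an SD of 26.4 TPM at 15 min and 16.6 TPM in the control (n = 3 each). Later it was at 0 and 7.14 TPM at 30 min, and at 0, 24.2 and 16.0 TPM at 1 h. It was at 0 and 54.1 TPM at 2 h, at 0, 0 and 14.3 TPM at 4 h, and at 0 in all libraries of 8 h and 24 h. A split between 0 and higher levels within a group is thus not particular to 15 min in this gene. With all 3 libraries in the fit, none of these 4 genes passed at 15 min (limma adjusted p from 0.732 to 0.959). The choice of genes with a wide spread at 15 min favours that outcome. Without 15 min replicate 2 none of the 4 passed either (limma adjusted p from 0.0902 to 0.613).

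**Figure D4:**
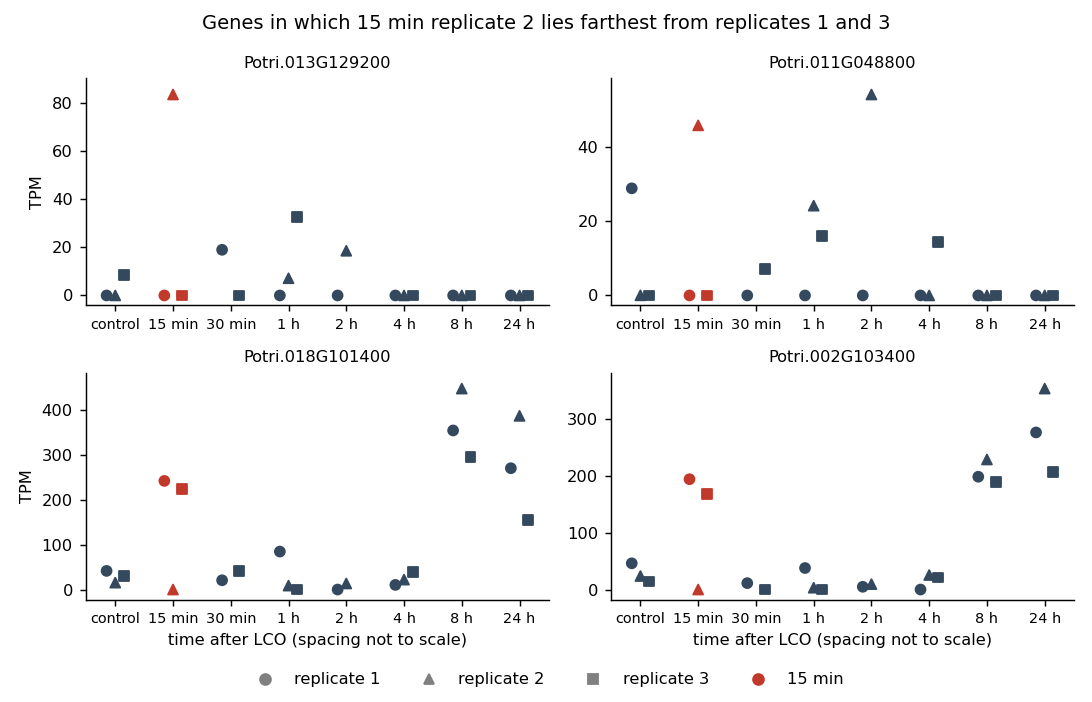
TPM in every library of the time course for the 4 genes in which 15 min replicate 2 lay farthest above (upper row) or below (lower row) replicates 1 and 3; 15 min is in red and marker shapes give the replicate number. In Potri.018G101400 and Potri.002G103400 replicate 2 of 15 min is at 0 while replicates 1 and 3 are at 169 to 242 TPM.

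Correlations of whole libraries also set 15 min replicate 2 apart from replicates 1 and 3. Across the tested genes, which are not independent of each other, 15 min replicate 1 correlated best with 15 min replicate 3 (r = 0.962), and replicate 3 with replicate 1. Replicate 2 correlated best with replicate 1 of 30 min (r = 0.962), followed by replicate 2 of 1 h (r = 0.958), and with the other 15 min libraries at 0.881 and 0.910. Its correlation with the mean of a group was 0.946 for the control, then 0.962 and 0.963 for 30 min and 1 h, 0.939 and 0.918 for 2 h and 4 h, and 0.834 and 0.821 for 8 h and 24 h. For replicate 1 the same values were 0.910, 0.878, 0.896, 0.871, 0.875, 0.895 and 0.885, and for replicate 3 they were 0.935, 0.915, 0.925, 0.909, 0.912, 0.918 and 0.906. Replicates 1 and 3 were therefore closer to the 8 h and 24 h means than replicate 2 was, and replicate 2 was closer to the control, 30 min, 1 h, 2 h and 4 h means. Of these group means, replicates 1 and 3 each correlated best with the control, not with 8 h or 24 h. All libraries were normalized together, and these values carry no test. The labels of the libraries were taken as given; whether any 15 min library was exchanged or mixed with another was not tested, and every 15 min mean and call rests on these labels.

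Genes whose 15 min level differed from the mean of the later times were asked for next. The contrast holds no control library: it is 15 min minus the mean of 30 min, 1 h, 2 h, 4 h, 8 h and 24 h. Of 25636 genes, 4712 (18.4%) differed, 2422 higher (9.45%) and 2290 lower (8.93%) at 15 min (limma, adjusted p under 0.05). The count was 7230 without 15 min replicate 2, 2302 without replicate 1 and 3100 without replicate 3. Of the 1109 genes called higher than control at 15 min, 867 were also higher than the later mean, and of the 957 called lower, 436 were also lower. A further 35 genes passed in opposite directions. The rest of the 4712, which are most of them, were not called against control at 15 min. At 8 h and 24 h, 20.1% of tested genes were called higher than control, and 16.1% and 15.8% lower. A gene near its control level at 15 min can therefore differ from the later mean through those times alone. Both comparisons use the same 15 min libraries, so the second is no separate evidence for the first. Among the 139 genes that rose in all 3 fits, 135 were higher at 15 min than at the later times. Among the 88 that fell, 19 were lower than at the later times and 16 higher.

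The time course of these genes was read against the same controls at each time. Those controls also served to choose the genes, which favours a later difference in the same direction. In the 139 genes that rose, the median log2 fold change was 1.67 at 15 min, then 0.89 and 0.80 for 30 min and 1 h, -0.06 and -0.59 for 2 h and 4 h, and -0.61 and -0.78 for 8 h and 24 h. Of the 139, 62 were called higher than control after 30 min, 63 after 1 h, 14 after 2 h and 9 after 4 h, while over all tested genes the shares called higher at these times were 0.839%, 1.61%, 1.98% and 4.61%. After 8 h and 24 h, 13 and 6 of the 139 were called higher, where 20.1% of all tested genes were at either time. None of the 139 was called lower at 30 min or 1 h, where 0.94% and 1.27% of all tested genes were. After 2 h and 4 h, 13 and 58 were called lower, beside 2.21% and 4.95% of all tested genes. After 8 h and 24 h, 72 and 83 were called lower, beside 16.1% and 15.8%. In the 88 genes that fell, the median was -1.98 at 15 min, then -1.87 and -1.62 for 30 min and 1 h, -1.86 and -1.91 for 2 h and 4 h, and -2.16 and -1.75 for 8 h and 24 h. Between 54 and 68 of them were called lower at each later time. The groups of 30 min and 2 h have 2 libraries, so fewer genes can pass there. Those of 30 min include its replicate 3, which listed the most genes at 0 of all 22 libraries (13313).

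Both named genes that rose had their highest level at 15 min and fell below control later. For Potri.012G134100, whose 15 min and control values are given above, the decline is shown by library. At 30 min its 2 libraries were at 15.0 and 10.3 TPM, and at 1 h it was at 4.13, 5.78 and 4.44 TPM. It was then at 1.66 and 1.80 TPM at 2 h, between 0.385 and 0.622 TPM at 4 h, between 0.0249 and 0.472 TPM at 8 h and between 0.0895 and 0.348 TPM at 24 h. Against control it was called higher up to 1 h (log2 fold change 1.17, limma adjusted p = 0.00161) and lower from 4 h (-0.76, limma adjusted p = 0.0148) to 24 h (-1.12, adjusted p = 0.000253). The 15 min level of Potri.012G134100 exceeded the mean of the later times by 2.76 on the log2 scale (SE 0.14, limma, adjusted p = 1.39e-09). That of Potri.006G105500 exceeded it by 3.52 (SE 0.26, limma, adjusted p = 5.93e-08). Potri.006G105500 averaged 27.4 TPM at 30 min, 7.93 TPM at 1 h and 0.493 TPM at 24 h, where it was called lower than control (log2 fold change -1.93, limma adjusted p = 0.000393). For Potri.008G062300 and Potri.010G195700 the differences from the later mean were 0.41 and 0.37, with limma adjusted p-values of 0.337 and 0.304.

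**Figure D5:**
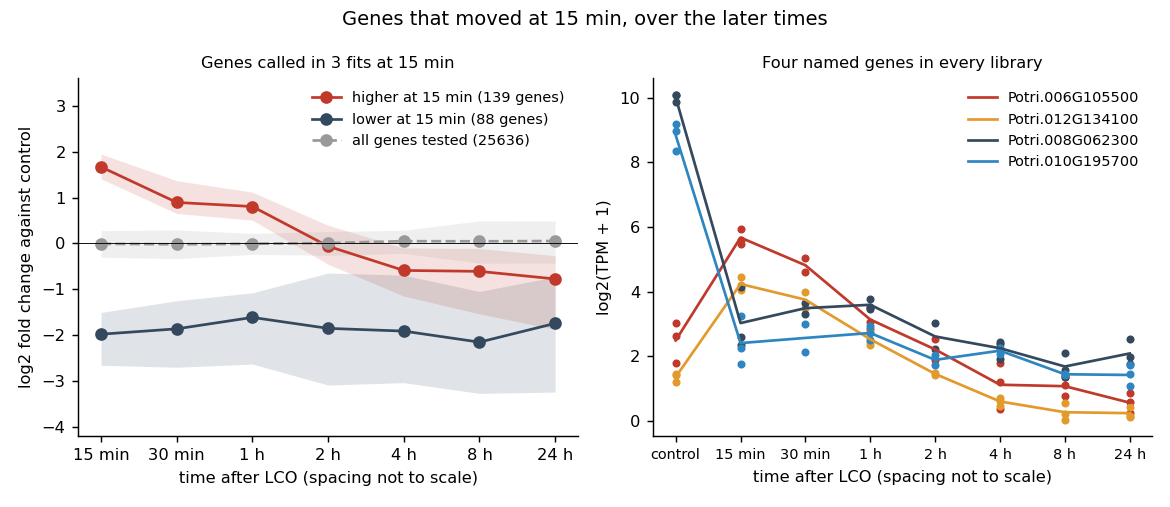
Left, the median log2 fold change against control, with the band from the lower to the upper quartile, of the 139 genes that rose and the 88 that fell at 15 min and of all 25636 genes. Right, log2(TPM + 1) of 4 named genes in every library with lines through the group means; the 139 genes go from a median of 1.67 at 15 min to -0.78 at 24 h, while the 88 stay between -1.62 and -2.16.

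By the same rule the genes that were lower at 15 min both against control and against the later times were led by Potri.009G062901. It was listed at 0 in all 3 libraries of 15 min, against 6.40, 12.6 and 32.3 TPM in the controls (limma adjusted p = 3.31e-05; no fold is given against a group at 0). It was above 0 in every library of 30 min, 1 h, 2 h and 4 h, between 10.4 and 35.4 TPM, and again listed at 0 in all libraries of 8 h and 24 h. The call against the later mean therefore rests on the times from 30 min to 4 h. Potri.T125650 was at 18.4, 4.94 and 47.0 TPM at 15 min, against 67.7, 87.3 and 156 TPM in the controls. Here replicate 2 was the lowest 15 min library, and replicate 3 was the nearest to the controls. Its log2 fold change was -2.48 (SE 0.64, limma, adjusted p = 0.0241), and the call was lost with the 6 libraries alone (adjusted p = 0.163) and without 15 min replicate 1 (0.0716), 15 min replicate 2 (0.0501), control replicate 2 (0.0546) or control replicate 3 (0.0879).

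The identifiers place genes in order along a chromosome, with the chromosome number after the name Potri, so neighbours could be compared without annotation. Neighbours here are tested genes next in this order, so untested genes may lie between them. Identifiers with T in place of a number were left out. Genes called higher made up 2.84% to 6.02% of the tested genes of a chromosome, lowest on chromosome 15 and highest on 18. Genes called lower made up 2.85% to 4.60%, lowest on chromosome 5 and highest on 15. Among 24902 pairs of tested genes next to each other, 1091 had a first gene called higher, and in 91 of these (8.34%) the second was called higher too, where 4.39% of all second genes were. For genes called lower the numbers were 61 of 933 (6.54%), against 3.74% of all second genes. In 70 pairs 1 gene was called higher and the other lower. The called genes that were higher formed 80 stretches of at least 2 neighbours and 11 of 3, and those that were lower formed 53 of at least 2, the longest with 5 genes. Near-identical neighbouring copies can share reads, and this was not examined.

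In the transcript table, which was normalized apart from the gene table, 1472 of 29885 transcripts (4.93%) were called at 15 min, 829 higher (2.77%) and 643 lower (2.15%). With the 6 libraries alone 59 were called (0.197%), 28 higher (0.0937%) and 31 lower (0.104%). Without 15 min replicate 2 the number was 5988 (20%), 3057 higher (10.2%) and 2931 lower (9.81%). Of the 1472 transcripts, 1341 belonged to a gene that was called in the gene table. Only 11 of 3792 genes with at least 2 tested transcripts had at least 2 called ones, and in 6 of the 11 a transcript rose while another fell. Without replicate 2 the number with opposite transcripts was 168, 4 of the 6 among them. The pair that moved farthest, picked after its values were seen, belonged to Potri.006G218400. Its transcript 1 was at 27.1, 15.4 and 13.7 TPM at 15 min, against 0.0798, 0.767 and 0.0371 TPM in the controls, a log2 fold change of 3.92 (SE 0.80, limma, adjusted p = 0.00885). Transcript 2 was at 1.83, 0.174 and 4.21 TPM at 15 min, against 19.1, 16.7 and 17.2 TPM in the controls, a log2 fold change of -2.85 (SE 0.60, limma, adjusted p = 0.0103). The gene as a whole had a log2 fold change of 0.15 (limma, adjusted p = 0.696). All 3 libraries of 15 min lay on 1 side of the controls for both transcripts, but with the 6 libraries alone transcript 2 had an adjusted p of 0.129. Reads common to both transcripts are divided by an estimate whose error is not in these values.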

How the data were processed

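RNA of poplar roots was sequenced, and 22 libraries with a column in the deposited gene and transcript tables were read, 3 of them at 15 min after LCO and 3 of the control. The values deposited by the authors are natural logs of TPM + 1 after quantile normalization, per the tables' names; base e follows from the back-transformed totals of 936253 to 936552 TPM per library. The submitters' processing notes name kallisto and sleuth without versions or roles; a build was not given in the sources used here. Quantile normalization removes any change in total output, and TPM keeps no depth, so no counting interval can be given. Not analysed here were 30 min replicate 2 and 2 h replicate 3.

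Values were back-transformed and taken as log2(TPM + 1). Those averaging 1 TPM or more over all libraries were tested with limma 3.58.1 under R 4.3.3 (1 mean per group, empirical Bayes with a mean-variance trend, 14 residual degrees of freedom, two-sided, Benjamini-Hochberg adjustment over all genes tested, called under 0.05). The same model gave 15 min minus the mean of the 6 later times. Procedures were tested on simulated data with the same spread in every library, so a library that stands apart was not simulated. The design had assumed TPM rather than its log. Named genes are the 2 largest fold changes in each direction among called genes averaging 5 TPM or more over both groups, without overlap between the groups, and called also with the 6 libraries alone or, for the later times, against those times. Genes for replicate 2 are those farthest from both other 15 min libraries where these differ by at most 1 on the log2 scale and the 15 min mean is at least 5 TPM. Gene lists and promoter motifs had been planned by gene description; no annotation was used here, so they have no result. Comparisons, rules and lists were chosen with earlier results of these data known. Python 3.11.15 with matplotlib 3.10.9 made the plots.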

Additional observations from a re-analysis of the deposited data

Results flagged for a closer look

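The level at 15 min differed from the mean of the later times in 4712 genes, by the limma contrast of 15 min minus the mean of 30 min to 24 h. Such a difference can come from 8 h and 24 h alone, and most of these genes were not called against control at 15 min. Among the named genes, Potri.006G105500 was higher at 15 min than at the later times by 3.52 on the log2 scale and Potri.012G134100 by 2.76. Potri.T125650 was lower at 15 min, with a difference of -2.35 (limma adjusted p = 0.00271), and Potri.009G062901, listed at 0 at 15 min, had a fitted difference of -2.82, which depends on the pseudocount and is no bound.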

How the results depend on the processing

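The number of genes called at 15 min against control was 240 from the 15 min and control libraries alone and 9491 when libraries were weighted. It was 6761 when 15 min replicate 2 and 30 min replicate 3 were both left out, an alternative added after seeing the data, as was the covariate of genes at 0; leaving out 1 library of either group gave 848 to 5831. Against the later times it was 9628 when weighted, 7759 without these 2 libraries, and 2302 to 7230 without single 15 min libraries. The number of genes whose 15 min libraries all lay on 1 side of the controls was 5997, and 7337 to 14077 with 1 library fewer (14077 without 15 min replicate 2, 9027 without control replicate 3), where fewer libraries have to agree. The cause of the other moves was not tested. In the weighted fit 15 min replicates 1, 2 and 3 had weights of 0.611, 0.202 and 2.93. Its 15 min level thus rested mostly on replicate 3 and least on replicate 2. Other pseudocounts (0.1 and 5), filters, the covariate of genes at 0 and a fit without trend kept both counts of calls within 1.5 times. With the replicate number as a block, 2088 genes were called against control and 4929 against the later times. Deviations of same-numbered 15 min and control libraries had r = 0.203, -0.012 and 0.208 for replicates 1, 2 and 3, and replicates 1 and 3, but not 2, correlated best with their own number; the libraries were not treated as paired, and a batch shared by some of them is undecided. Potri.008G062300 and Potri.010G195700 changed sign against the later times, without a call, when weighted (-0.13 and -0.11) and without 15 min replicate 2 (-0.15 and -0.039; without replicate 3 they were 0.74 and 0.70), and Potri.008G062300 also without both libraries that stand apart (-0.12). Potri.010G195700, Potri.008G062300, Potri.006G105500, Potri.012G134100 and Potri.009G062901 kept their call against control in every alternative run that tested them. Gene lists and promoter motifs, planned by gene description, were not run.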
